A study of Spinacia oleracea with 12 samples.

Results

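In spinach, 100 genes stood at a higher level in low N plants than in high N plants in root and in leaf alike. They were chosen from 25495 genes, of which 15344 had a mean of at least 1 FPKM (fragments scaled by gene length and by the library's total) in the leaf libraries and in the root libraries. Of these, 307 genes, or 2.00%, had every low N library above every high N library in both tissues. The 307 were ranked by the smaller of their 2 differences between the low N and high N means of log2(FPKM + 1), and the first 100 were kept. A further 4 genes named for removal (Spo28204, Spo18481, Spo17157 and Spo04382, best hits RADIALIS, RADIALIS-like 6 and heat shock proteins) were not among the 100, because their root libraries overlapped between treatments, so 100 members remained. The differences between low N and high N therefore chose the members, and they are given below as a description with no test.

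The RNA came from plants of the spinach variety Banjo, 6 weeks old, raised in a growth chamber on a Turface-based medium. The 4 groups of 3 libraries were low N root and low N leaf (50 ppm N), and high N root and high N leaf (200 ppm N), from 3 plants per treatment, and it was not stated whether a leaf library and a root library with equal numbers share a plant. The sample names gave the groups, and for some samples the tissue or treatment entry in the record said otherwise. In the libraries named as leaf, 6 chlorophyll-binding and photosystem genes summed to between 14600 and 21827 FPKM, against 3.58 to 11.9 FPKM in those named as root. The nitrate transporter NRT2.1 (Spo09968), known from uptake by roots, had 208, 272 and 167 FPKM in low N root, against 1.28, 0.198 and 101 FPKM in high N root, and at most 0.0355 FPKM in leaf. High N root replicate 3 was thus nearer to low N root for this gene than the other high N root libraries were. Libraries held 15627994 to 18608172 fragments on genes. In bulk tissue, more cells of a type and more RNA per cell cannot be told apart.

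Plants short of N take up nitrate and ammonium through high-affinity transporters and direct more growth to the root, and growing cells build and loosen a wall of cellulose, xyloglucan, xylan and pectin. Receptor kinases with malectin-like domains, such as FERONIA and THESEUS 1 of Arabidopsis, sense the state of that wall, and small RALF peptides are ligands of FERONIA. Small heat shock proteins and luminal-binding proteins keep other proteins folded, the first under heat and other stresses and the second in the endoplasmic reticulum. Names and roles here rest on the best hit in other plants that the study gave for a gene, mostly in Arabidopsis. Such a hit was given for 69 of the 100 members, 18 more were listed with no hit, and 13 were in none of the lists with names.

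Among the members, the low N minus high N difference in root ran from 0.57 to 2.03 on the log2(FPKM + 1) scale, with a median of 0.96, beside a median of 0.04 over all 15344 genes. In leaf it ran from 0.58 to 2.79 with a median of 0.91, also beside 0.04 over all genes. At least 1 unit of log2 was reached by 46 members in root, by 42 in leaf and by 24 in both. The difference was larger in root for 48 members and larger in leaf for 52, and it was within 0.1 of equal for 30. The widest excess of leaf over root was 1.53 and the widest excess of root over leaf was 0.997. Typical levels were a median of 31.9 FPKM in low N root, against 14.4 FPKM in high N root, and 15.7 FPKM in low N leaf, against 8.03 FPKM in high N leaf. Over all 15344 genes the medians were 14.5 FPKM in low N root, against 13.9 FPKM in high N root, and 10.6 FPKM in low N leaf, against 9.94 FPKM in high N leaf. The median of the members was thus close to that of all genes in high N root, below it in high N leaf and above it in both low N groups. The rule places low N above high N, so this shift between supplies is built in.

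**Figure D1:**
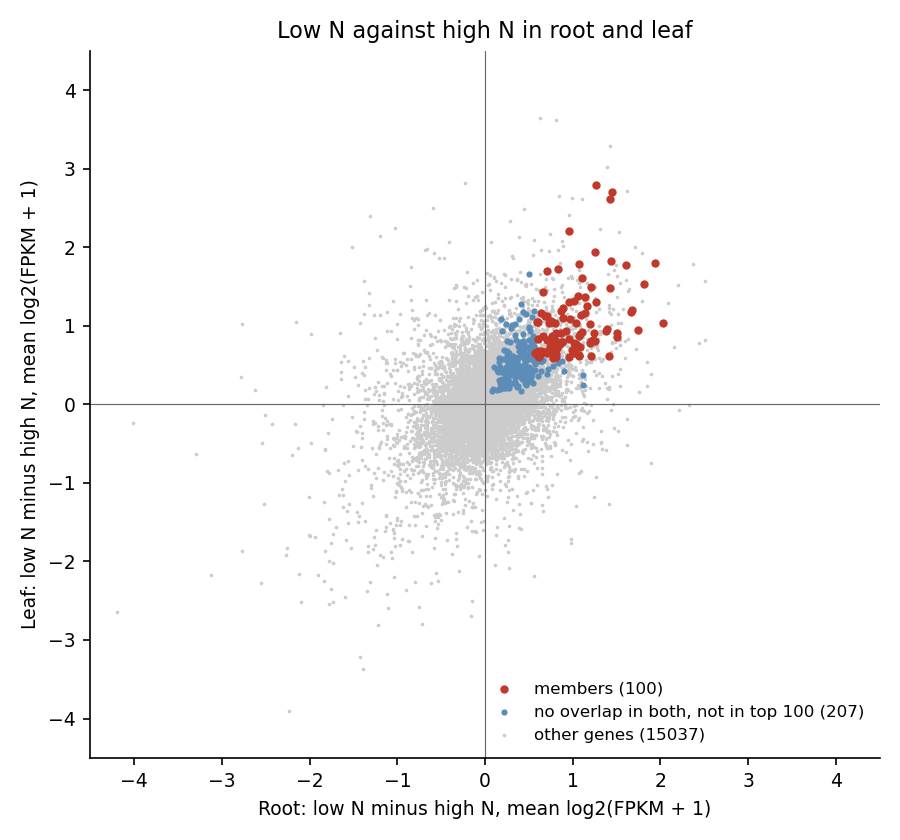
Each point is a gene, placed by its low N minus high N difference of mean log2(FPKM + 1) in root (horizontal) and in leaf (vertical); red points are the 100 members, blue points the other 207 genes whose low N and high N libraries did not overlap in either tissue, and grey points the remaining 15037 genes with a mean of at least 1 FPKM in both tissues. The members fill the upper right, where root differences run from 0.57 to 2.03 and leaf differences from 0.58 to 2.79, and grey points among them are genes whose libraries overlapped in at least 1 tissue.

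The same rule with high N above low N held for 152 genes, or 0.991%, and 92 genes had no overlap in opposite directions in the 2 tissues. Taken alone, 9.10% of the genes had low N above high N with no overlap in root and 10.5% in leaf, against 5.74% and 7.11% with high N above low N. Scaling moved this balance. Median-of-ratios scaling took each gene's ratio to its geometric mean over the libraries, for genes above 0 in every library, and set the median ratio of each library equal. After it, 254 genes were higher in low N in both tissues and 236 in high N, and after quantile normalization 240 and 245. All 100 members kept a difference above 0 in both tissues under either scaling, 83 kept their gap between treatments in both tissues under median-of-ratios scaling and 79 under quantile normalization. The 17 that overlapped under median-of-ratios scaling included Spo16727, Spo24676, Spo13117, Spo10579, Spo25753, Spo00916, Spo20523, Spo16177, Spo16147 and Spo06399, all described below. Under quantile normalization, overlap was also found for Spo04826, Spo06253 and Spo14039, which are described below too. Over all genes, limma on log2(FPKM + 1) gave an adjusted p below 0.05 for 5 genes in root and 0 in leaf, with 1993 and 1850 at an unadjusted p below 0.05. The 5 were 0.0280% of the genes tested in root and all were lower in low N, with 0 members among them, and 95 members in root and 94 in leaf had an unadjusted p below 0.05, counts that the rule itself produced.

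The member with the highest rank was Spo16727 (plant-specific TFIIB-related protein 1, a relative of a general transcription factor). In root it had 16.7, 26.7 and 16.6 FPKM under low N, against 10.2, 0.162 and 10.998 FPKM under high N. In leaf it had 14.9, 18.5 and 14.3 FPKM under low N, against 6.897, 0 and 13.5 FPKM under high N. Its 1 fragment in high N root replicate 2 and 0 fragments in high N leaf replicate 2 set its place at the top, beside 64 and 66 fragments in the other high N root libraries and 43 and 95 in the other high N leaf libraries. Without replicate 2 of high N in either tissue, its difference was 0.83 in root and 0.65 in leaf, compared with 1.93 and 1.79 with it. It was the only member with a value of 0 in any library.

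At the other end, the last members inside the limit were Spo15693 (RETICULATA-RELATED 4), Spo14039 and Spo00108, whose smaller differences were 0.59, 0.58 and 0.57. Just outside stood Spo08003, Spo21047 and Spo01582 with 0.57, 0.56 and 0.56. The limit thus fell in a run of close values. Counts were low for a few members only, as 9 of the 100 had fewer than 10 fragments in at least 1 library, and the median over all members and libraries was 338 fragments. Member genes had a median length of 1469 bases, beside 1574 bases over all 15344 genes.

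**Figure D2:**
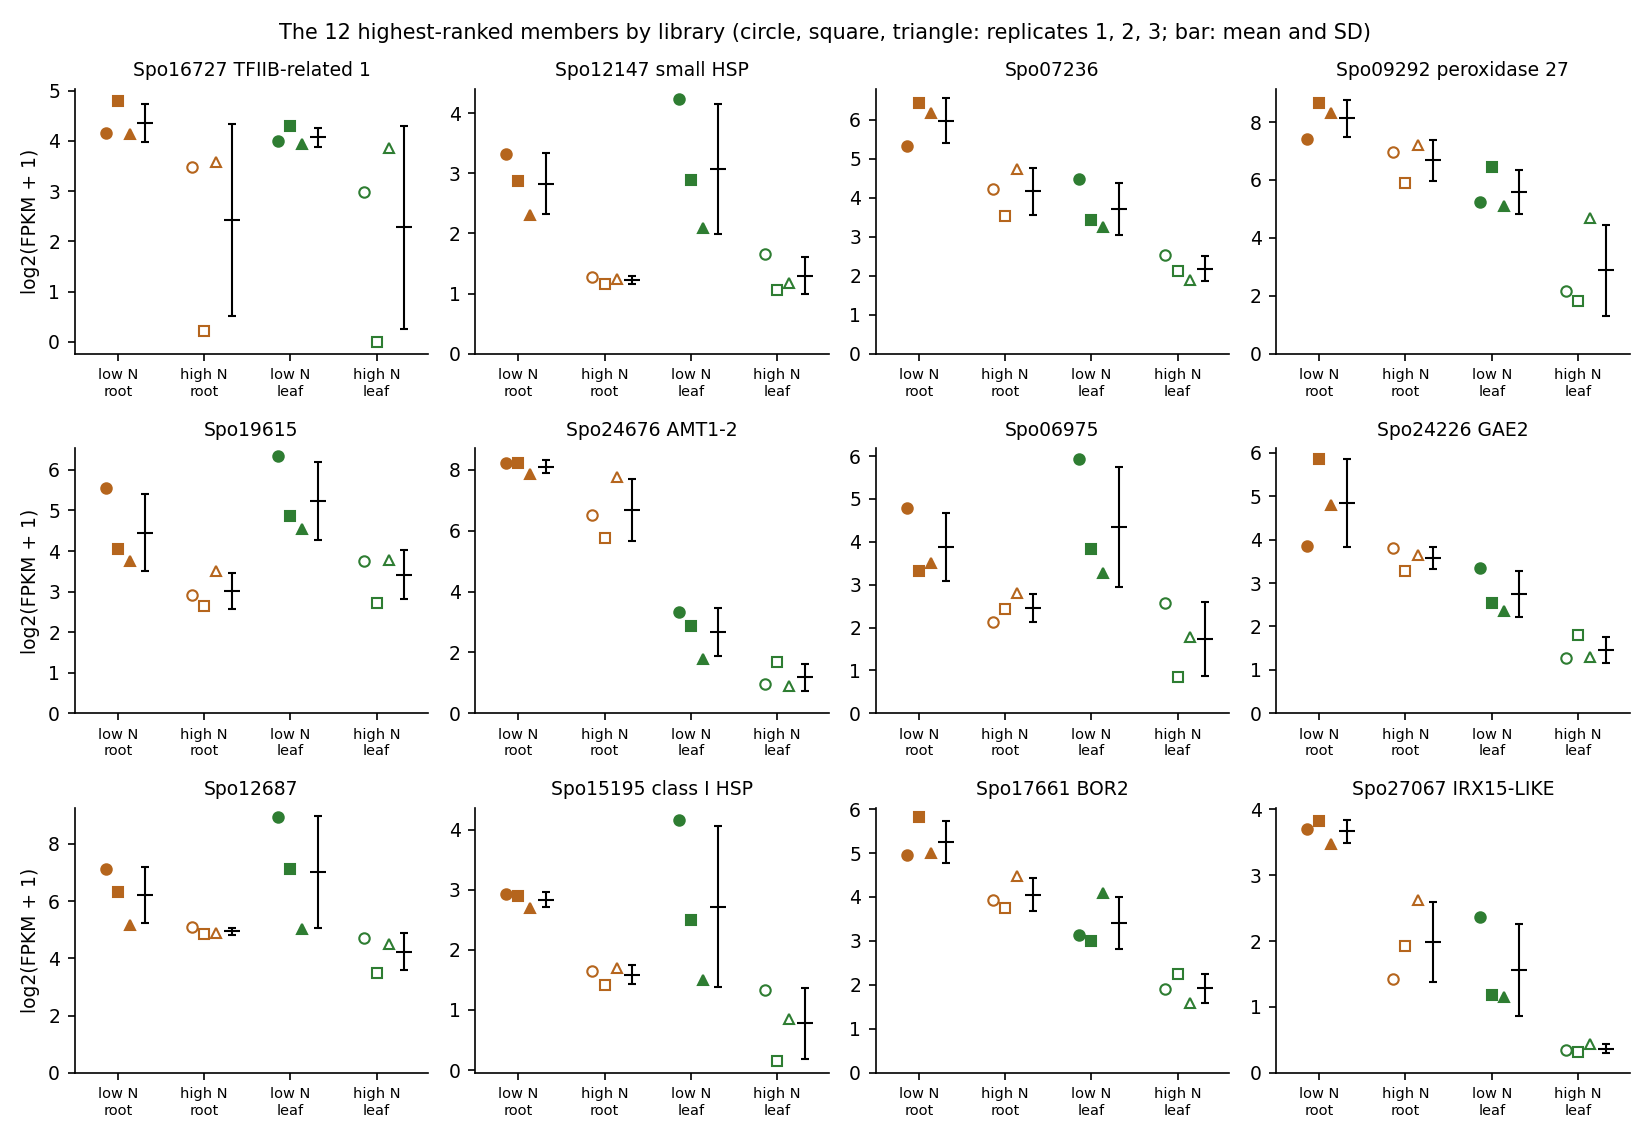
Values of log2(FPKM + 1) in each library for the 12 highest-ranked members, with low N (filled) left of high N (open) in root (brown) and in leaf (green); circles, squares and triangles are replicates 1, 2 and 3, and the bar at the right of each group is its mean with the SD of the 3 libraries. High N replicate 2 of Spo16727 lies at or near 0 in both tissues. Low N leaf replicate 1 is the highest leaf library of Spo12147, Spo07236, Spo19615, Spo24676, Spo06975, Spo24226, Spo12687, Spo15195 and Spo27067.

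Ammonium uptake was represented by Spo24676, whose best hit is the high-affinity ammonium transporter AMT1-2 of tomato. In root it had 299, 299.7 and 230.3 FPKM under low N, against 89.6, 53.7 and 216 FPKM under high N, which is a mean of 276 ± 39.8 FPKM under low N and 119.7 ± 85.05 FPKM under high N (SD, n = 3 each). In leaf it had 9.05, 6.35 and 2.48 FPKM under low N, against 0.956, 2.25 and 0.8498 FPKM under high N, which is a mean of 5.96 ± 3.302 FPKM under low N and 1.35 ± 0.7804 FPKM under high N (SD, n = 3 each). High N root replicate 3 came close to the low N root libraries, and every leaf library lay far below every root library. Of the other 4 genes with an ammonium transporter as best hit, 2 were higher and 2 lower in low N root at an unadjusted p below 0.05 in limma, where 6.52% and 4.63% of all genes tested were, and in leaf 1 of 3 tested was higher and 0 were lower. Best-hit names were given only for genes that the study listed as changed in these libraries, so such counts, here and in the lists that follow, are not independent evidence, and 0 of the 4 had an adjusted p below 0.05. Spo24677 and Spo16971 share the best hit of Spo24676, and how fragments that match more than 1 copy were counted is a limit on the values of all 3.

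Boron, which cross-links pectin in the wall, enters and moves through plants by NIP5-1 channels and BOR transporters in Arabidopsis. Spo17661 (boron transporter 2) had 30.3, 55.2 and 30.9 FPKM under low N, against 14.2, 12.5 and 21.1 FPKM under high N in root. In leaf the values were 7.83, 7.03 and 16.1 FPKM under low N, against 2.75, 3.77 and 2.02 FPKM under high N. Spo21511 (NIP5-1) had 38.4, 43.2 and 36.1 FPKM under low N, against 19.5, 22.7 and 26.5 FPKM under high N in root, and 7.06, 11.5 and 13.4 FPKM under low N, against 5.62, 5.05 and 6.05 FPKM under high N in leaf. Both genes were higher in low N by similar steps in the 2 tissues, 1.21 in root and 1.496 in leaf for boron transporter 2 and 0.76 and 0.79 for NIP5-1. Of 4 other genes with such best hits, the 3 tested in root held 1 that was lower and 0 that were higher in low N at an unadjusted p below 0.05. The 2 tested in leaf held 0 in either direction, with 6.48% of all leaf genes higher and 4.72% lower. The gene lower in root was Spo17484, which shares the best hit NIP5-1 with Spo21511. It averaged 11.3 FPKM in low N root, against 19.97 FPKM in high N root, and 0 FPKM in leaf under both supplies. Its root difference was -0.74, so genes with this best hit went in both directions in root. Spo18918 and Spo18919, both with boron transporter 4 as best hit, differed by -0.70 and 0.59 in root.

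Sulfate assimilation starts with ATP sulfurylase, and its best hit Spo11735 (ATP sulfurylase 1) was among the most abundant members. Root values were 869.9, 468 and 804 FPKM under low N, against 257, 208 and 347 FPKM under high N. Leaf values were 91.7, 94.4 and 95.1 FPKM under low N, against 66.3, 48.9 and 35.01 FPKM under high N. Here low N root replicate 2 was the lowest of its group, unlike for most members. The cytosolic sulfotransferase 14 gene Spo27199, the vacuolar-type amino acid transporter AVT6E gene Spo16147 and the ABC transporter B9 gene Spo01447 differed by 0.60, 0.61 and 0.74 in root and by 1.05, 0.61 and 0.82 in leaf. Of 8 other genes of iron transport and sulfate assimilation, the 8 tested in root held 5 that were higher and 3 that were lower in low N at an unadjusted p below 0.05, and the 6 tested in leaf held 3 and 0. Spo13793 (5'-adenylylsulfate reductase 1, also of sulfate assimilation) was among those lower in root, unlike Spo11735. It averaged 24.2 FPKM in low N root, against 63.1 FPKM in high N root, and 20.5 FPKM in low N leaf, against 2.13 FPKM in high N leaf.

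Genes of the cell wall were the largest group with a shared role, 12 members that make its polymers or sit in it. Their differences had a median of 1.12 in root, from 0.74 to 1.68, and of 0.93 in leaf, from 0.61 to 1.36. For all 12, low N root replicate 2 was the highest of the 3 low N root libraries, and for 10 of the 12 high N root replicate 3 was the highest of its group. Over all members, these libraries were the highest for 70 and 84, beside 33.8% and 36.9% of all genes. The counts are thus not particular to the wall genes. The wall group was put together with the values known, so it carries no test.

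UDP-glucuronate 4-epimerases make the sugar nucleotide from which pectin is built, and 2 of them were members. Spo24226 (GAE2) had 13.4, 57.3 and 27.1 FPKM under low N, against 12.9, 8.78 and 11.5 FPKM under high N in root, and 9.26, 4.85 and 4.14 FPKM under low N, against 1.41, 2.501 and 1.45 FPKM under high N in leaf. Spo08864 (GAE6) had 70.96, 106 and 69.998 FPKM under low N, against 35.8, 26.3 and 50.1 FPKM under high N in root, and 76.1, 69.96 and 86.6 FPKM under low N, against 40.02, 25.1 and 25.4 FPKM under high N in leaf. GAE6 stood at a similar level in both tissues, and GAE2 was the lower of the 2 in every group. Spo27067 (IRX15-LIKE, of a family needed for xylan in Arabidopsis) had 12.01, 13.1 and 10.1 FPKM under low N, against 1.67, 2.79 and 5.19 FPKM under high N in root, and 4.14, 1.26 and 1.22 FPKM under low N, against 0.2702, 0.2399 and 0.3602 FPKM under high N in leaf. Its high N leaf level was under 0.4 FPKM in every library, with 4 fragments in the lowest.

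For cellulose, Spo07185 (cellulose synthase A6, a subunit of the complex in primary walls) had 82.5, 151 and 101 FPKM under low N, against 47.6, 42.000 and 70.9 FPKM under high N in root. In leaf it had 77.4, 53.9 and 68.4 FPKM under low N, against 39.9, 40.4 and 34.8 FPKM under high N. Low N root replicate 2 was again well above the other 2, and the high N leaf libraries lay close together. Spo26678 (XXT1, which adds xylose to xyloglucan) had 32.8, 72.4 and 41.99 FPKM under low N, against 20.3, 15.7 and 29.03 FPKM under high N in root, and 32.4, 14.9 and 14.2 FPKM under low N, against 9.17, 9.496 and 10.1 FPKM under high N in leaf. Spo13117 (endoglucanase 24), Spo00916 (GALS3, a galactan synthase) and Spo21392 (UDP-glucose 4-epimerase) differed by 0.93, 0.74 and 0.79 in root and by 0.93, 0.81 and 0.63 in leaf.

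Proteins of the wall were represented by 3 fasciclin-like arabinogalactan proteins and an LRR-extensin. Spo18855 (FLA8) had 22.4, 85.4 and 43.5 FPKM under low N, against 19.3, 16.4 and 20.3 FPKM under high N in root, and 21.6, 17.3 and 28.8 FPKM under low N, against 14.3, 13.7 and 9.72 FPKM under high N in leaf. The 2 genes with FLA17 as best hit, Spo16800 and Spo14116, differed by 1.39 and 0.96 in root and by 0.96 and 1.30 in leaf, and they may share fragments. Spo03224 (LRX4) had 57.7, 162 and 93.995 FPKM under low N, against 46.3, 33.6 and 44.3 FPKM under high N in root, and 46.9, 58.5 and 64.4 FPKM under low N, against 42.4, 37.7 and 30.1 FPKM under high N in leaf. In FLA8 and LRX4 the low N root replicates spread widely, with replicate 2 the highest, and the leaf groups were separated by small gaps.

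Beyond the members, 30 other genes carried a best hit from a list of wall names (cellulose synthases, fasciclin-like proteins, IRX15, glucuronate epimerases, expansins, COBRA-like proteins, xyloglucan enzymes and extensins), a list that holds 9 of the 12 members above. Of the 27 tested in root, 12 were higher and 2 lower in low N at an unadjusted p below 0.05, and of the 22 tested in leaf, 11 were higher and 7 lower. None had an adjusted p below 0.05 in limma. All 30 had been listed by the study as changed in these libraries, so a high share is built in. Among them, Spo12227 (xyloglucan endotransglucosylase/hydrolase 2) differed by 0.66 in root and by -1.35 in leaf, and Spo11774 (expansin-like A1) by -1.02 and -1.81. Wall genes thus held values in both directions outside the members.

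The receptor kinases and their ligand followed. Spo04078 (FERONIA) had 90.6, 122 and 101 FPKM under low N, against 65.3, 59.8 and 79.8 FPKM under high N in root, and 54.4, 39.1 and 33.9 FPKM under low N, against 31.2, 22.9 and 23.2 FPKM under high N in leaf. Spo16994 (THESEUS 1) had 8.02, 16.7 and 10.9 FPKM under low N, against 5.59, 4.22 and 6.55 FPKM under high N in root, and 10.4, 5.03 and 7.5001 FPKM under low N, against 4.99, 4.43 and 4.18 FPKM under high N in leaf. Both ranked in the last 10 of the 100, at 92 and 97, with smaller differences of 0.60 each. Spo06335 (RALF-like 33, a secreted peptide of the RALF family) had 1075, 1058 and 699 FPKM under low N, against 504, 467 and 631 FPKM under high N in root, and 297, 311 and 285 FPKM under low N, against 228, 160.0 and 190.4 FPKM under high N in leaf, and its low N root mean of 944 FPKM was the highest of any member. Its low N root replicate 3 lay close to high N root replicate 3. Of 3 other genes with FERONIA or HERK 1 as best hit, 2 were higher in low N root and 2 in low N leaf at an unadjusted p below 0.05, and 0 were lower.

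Microtubules guide cellulose synthesis, and 2 tubulin genes were members. Spo15071 (tubulin alpha-5) had 35.3, 90.8 and 55.3 FPKM under low N, against 28.9, 18.4 and 32.9 FPKM under high N in root, and 13.8, 21.1 and 27.5 FPKM under low N, against 13.3, 8.83 and 9.33 FPKM under high N in leaf. Spo13511 (tubulin beta-3) had 46.9, 112 and 53.1 FPKM under low N, against 35.9, 27.3 and 36.8 FPKM under high N in root, and 32.3, 22.1 and 21.5 FPKM under low N, against 16.7, 11.8 and 12.5 FPKM under high N in leaf. Both shared the high value of low N root replicate 2. The actin-nucleating formin-like protein 6 gene Spo18836 differed by 1.25 in root and by 0.81 in leaf.

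Class III peroxidases, secreted enzymes that can stiffen or loosen walls, had 3 members. Spo09292 (peroxidase 27) had 171, 400.5 and 321 FPKM under low N, against 124, 58.04 and 148 FPKM under high N in root, and 36.6, 86.9 and 32.95 FPKM under low N, against 3.47, 2.51 and 24.8 FPKM under high N in leaf. High N leaf replicate 3, with 24.8 FPKM, lay far above the other 2 high N leaf libraries and below the lowest low N one. Spo22556 (peroxidase 63) had 13.1, 47.97 and 23.6 FPKM under low N, against 10.3, 9.49 and 12.5 FPKM under high N in root, and 20.7, 20.7 and 17.4 FPKM under low N, against 7.801, 9.1997 and 7.6001 FPKM under high N in leaf. Spo00394 (peroxidase 4) had 17.02, 50.2 and 22.6 FPKM under low N, against 9.91, 6.57 and 10.6 FPKM under high N in root, and 4.55, 4.997 and 4.82 FPKM under low N, against 1.84, 2.33 and 2.49 FPKM under high N in leaf. For all 3, low N root replicate 2 and high N root replicate 3 were the highest of their groups, as they were for 70 and 84 of all members. Of 23 other peroxidases, the 19 tested in root held 12 that were higher and 5 that were lower in low N at an unadjusted p below 0.05, and the 12 tested in leaf held 5 and 2, again among genes the study had listed as changed. The peroxidase 2 gene Spo07360 alone had an adjusted p below 0.05 in limma (0.0379), with a mean of 12.1 FPKM in low N root, against 86.9 FPKM in high N root. Spo20523 (dirigent protein 21, of a family that steers the coupling of phenols) had 189, 174 and 150.0 FPKM under low N, against 128, 77.1 and 124 FPKM under high N in root, and 156, 37.6 and 25.96 FPKM under low N, against 16.3, 22.6 and 19.7 FPKM under high N in leaf, where low N replicate 1 stood apart.

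**Figure D3:**
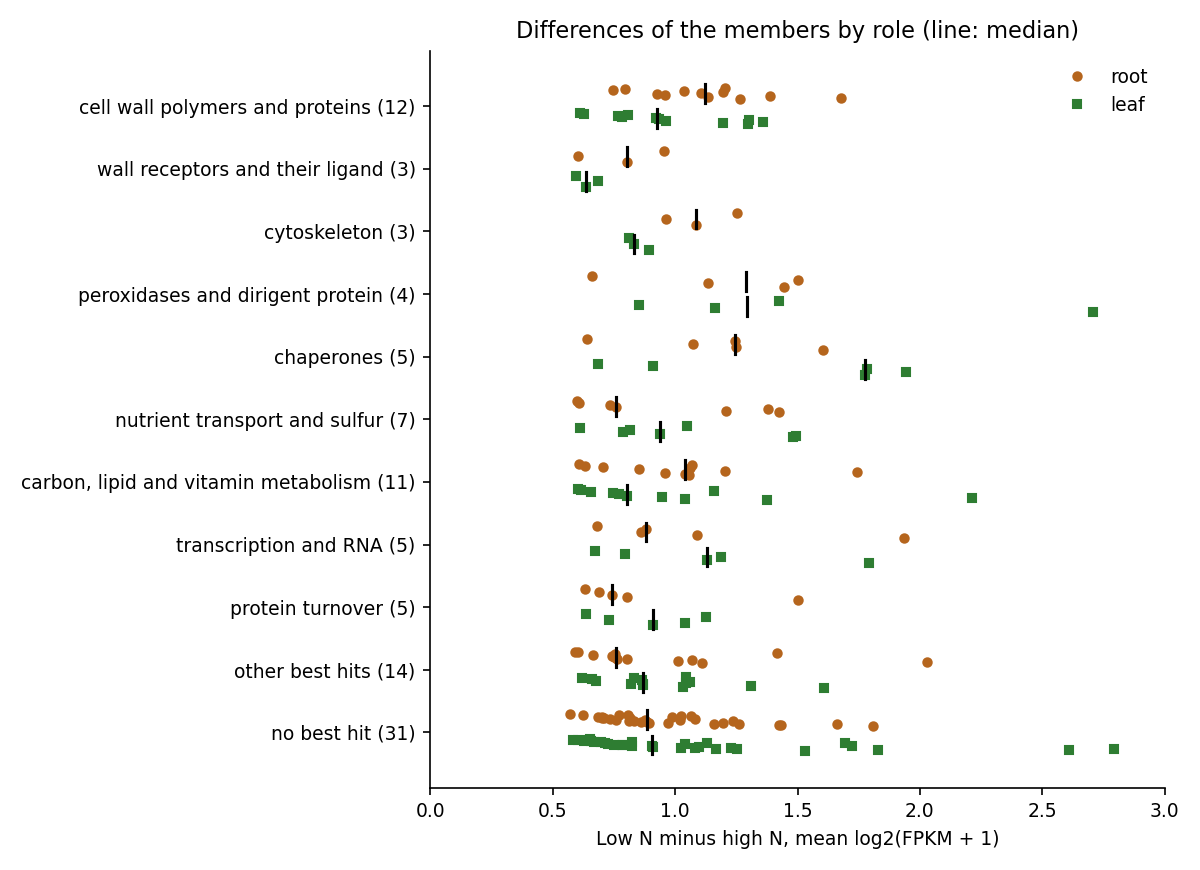
Low N minus high N difference of mean log2(FPKM + 1) for each of the 100 members (horizontal), grouped by the role of the best hit (rows, with the number of members), in root (brown circles) and in leaf (green squares); the black line is the median of a row. The medians lie at 1.12 in root and 0.93 in leaf for the 12 wall genes, and at 1.24 in root and 1.77 in leaf for the 5 chaperones.

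The 5 chaperones differed in which library stood high. Spo12147 (small heat shock protein of the chloroplast) had 9.04, 6.28 and 3.92 FPKM under low N, against 1.41, 1.23 and 1.38 FPKM under high N in root, and 17.9, 6.403 and 3.27 FPKM under low N, against 2.15, 1.09 and 1.27 FPKM under high N in leaf. Spo15195 (a small class I heat shock protein) had 6.595, 6.45 and 5.47 FPKM under low N, against 2.14, 1.67 and 2.25 FPKM under high N in root, and 16.9, 4.62 and 1.84 FPKM under low N, against 1.53, 0.113 and 0.794 FPKM under high N in leaf. Low N leaf replicate 1 was at least 2 times the other low N leaf libraries for both, and the low N root libraries were closer together. Spo04954 (BAG5, a co-chaperone of Hsp70 in Arabidopsis) had 51.4, 41.6 and 38.8 FPKM under low N, against 19.8, 17.1 and 24.3 FPKM under high N in root, and 124, 35.8 and 23.3 FPKM under low N, against 15.1, 10.6 and 13.7 FPKM under high N in leaf, with the same library on top.

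The luminal-binding proteins of the endoplasmic reticulum did not share that spread. Spo06330 (luminal-binding protein 4) had 18.8, 19.7 and 14.8 FPKM under low N, against 8.52, 4.65 and 8.05 FPKM under high N in root, and 2.14, 3.11 and 2.94 FPKM under low N, against 0.993, 0.882 and 1.04 FPKM under high N in leaf. Spo02516 (luminal-binding protein, best hit in spinach itself) had 227, 372 and 203 FPKM under low N, against 183, 153 and 162 FPKM under high N in root, and 57.5, 56.8 and 48.3 FPKM under low N, against 41.9, 33.2 and 26.3 FPKM under high N in leaf. Of 12 other genes with a heat shock, luminal-binding or related name as best hit, which include the transcription factor HSF24 (Spo22916), the 11 tested in root held 3 that were higher and 0 that were lower in low N at an unadjusted p below 0.05, and the 9 tested in leaf held 8 that were higher and 0 that were lower. The 2 heat shock genes named for removal are among these 12, with 160, 60.1 and 4.60 FPKM in low N leaf, against 3.18, 1.02 and 2.32 FPKM in high N leaf, for Spo17157 (Hsc70-2), so that replicate 1 was the highest low N leaf library there too.

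Several members with no best hit also had low N leaf replicate 1 on top. Spo12687 had 139, 79.4 and 35.1 FPKM under low N, against 32.8, 28.2 and 28.8 FPKM under high N in root, and 485, 139 and 31.3 FPKM under low N, against 24.96, 10.2 and 21.6 FPKM under high N in leaf. Spo06975 had 26.8, 9.04 and 10.4 FPKM under low N, against 3.39, 4.37 and 5.96 FPKM under high N in root, and 59.6, 13.1 and 8.68 FPKM under low N, against 4.95, 0.793 and 2.41 FPKM under high N in leaf. Spo19615 had 45.7, 15.6 and 12.6 FPKM under low N, against 6.59, 5.24 and 10.4 FPKM under high N in root, and 80.04, 27.9 and 22.2 FPKM under low N, against 12.5, 5.57 and 12.7 FPKM under high N in leaf. In all 3, low N replicate 1 was the highest low N library in root and in leaf, which held for 12 of the 100 members and for 14.3% of all 15344 genes, so nothing is read from that count. Low N leaf replicate 1 was at least 2 times both other low N leaf libraries for 19 of the 100 members, and for 6.57% of all 15344 genes.

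Of carbon metabolism, Spo14015 (PPCK1, the kinase that activates phosphoenolpyruvate carboxylase) had 168, 144 and 190.2 FPKM under low N, against 75.3, 78.4 and 104 FPKM under high N in root, and 5.67, 28.5 and 12.4 FPKM under low N, against 2.92, 0.977 and 2.43 FPKM under high N in leaf. Its leaf difference of 2.21 was more than its root difference of 0.96, and the low N leaf libraries spread over a 5-fold range. Spo18214 (trehalose-phosphate synthase 1, which makes the sugar signal trehalose 6-phosphate) had 16.99, 17.5 and 20.5 FPKM under low N, against 4.89, 7.67 and 15.02 FPKM under high N in root, and 11.8, 14.4 and 13.9 FPKM under low N, against 4.13, 6.35 and 7.96 FPKM under high N in leaf. Spo07238 (monosaccharide-sensing protein 2, a vacuolar sugar transporter) had 42.8, 58.2 and 56.1 FPKM under low N, against 16.4, 16.1 and 39.7 FPKM under high N in root, and 24.1, 32.9 and 45.8 FPKM under low N, against 18.1, 17.1 and 20.7 FPKM under high N in leaf. High N root replicate 3 was the highest of its group in all 3, as for 84 of all members. Of the 7 other genes of the trehalose-phosphate list, 1 was higher and 2 lower in low N root at an unadjusted p below 0.05, and 2 were higher and 4 lower in low N leaf. Spo18213, which shares the best hit of Spo18214, had differences of 0.87 in root and 1.04 in leaf.

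The starch branching enzyme gene Spo06399 and the ribose-5-phosphate isomerase 2 gene Spo00005 differed by 0.61 and 1.07 in root and by 0.60 and 0.62 in leaf. Among lipids, Spo00463 (MGD2, which makes galactolipids) differed by 0.71 in root and 0.65 in leaf. Spo06253 (CYP710A11, a sterol desaturase in tomato) had 94.3, 84.5 and 88.96 FPKM under low N, against 38.6, 39.98 and 75.4 FPKM under high N in root, and 4.36, 3.38 and 2.64 FPKM under low N, against 1.04, 2.101 and 1.71 FPKM under high N in leaf. Spo26964 (methylsterol monooxygenase 1-1) had 21.9, 40.6 and 24.1 FPKM under low N, against 12.2, 11.5 and 15.1 FPKM under high N in root, and 19.2, 13.5 and 14.9 FPKM under low N, against 11.4, 9.36 and 6.65 FPKM under high N in leaf. Of 3 other sterol enzymes, 3 of 3 tested were higher in low N root and 1 of 1 tested in low N leaf at an unadjusted p below 0.05. Spo04826 (acetylserotonin O-methyltransferase) had 43.1, 71.4 and 46.3 FPKM under low N, against 10.4, 11.5 and 27.2 FPKM under high N in root, and 1.29, 4.11 and 3.53 FPKM under low N, against 1.19, 0.835 and 0.835 FPKM under high N in leaf, where the gap between 1.29 and 1.19 FPKM was narrow. Of 39 other genes with a methyl, acyl or glycosyl transferase name as best hit, the 34 tested in root held 12 that were higher and 11 that were lower in low N at an unadjusted p below 0.05, and the 27 tested in leaf held 11 and 2. The 11 that were higher in low N leaf include 3 enzymes of wall polymers, Spo07791 and Spo13655 (xyloglucan glycosyltransferases) and Spo12159 (glucuronoxylan 4-O-methyltransferase 1). Spo07791 and Spo13655 are also in the list of wall names above.

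Of 70 genes in a list of transcription regulators, 2 were members, Spo11192 and Spo10579. The share of members among all named genes was not counted, so nothing is read from this number. Spo11192 (GATA8) had 11.8, 18.8 and 13.8 FPKM under low N, against 5.97, 5.36 and 7.77 FPKM under high N in root, and 9.17, 6.37 and 7.898 FPKM under low N, against 3.42, 2.66 and 2.92 FPKM under high N in leaf. Spo10579 (KUA1, a MYB-type factor that acts on cell expansion in Arabidopsis leaves) had 93.5, 96.3 and 126 FPKM under low N, against 49.1, 47.8 and 78.6 FPKM under high N in root, and 14.5, 7.93 and 5.89 FPKM under low N, against 1.57, 5.04 and 4.23 FPKM under high N in leaf. Spo11922 (LATERAL ROOT PRIMORDIUM 1) differed by 0.68 in root and 0.67 in leaf. Of 68 other transcription regulators with names, the 62 tested in root held 30 that were higher and 13 that were lower in low N at an unadjusted p below 0.05, and the 46 tested in leaf held 14 and 11. The ovate family repressors, with 5 named genes, had 0 members, and nothing is read from that count either. Among the 68, only the NAC29 gene Spo21018, lower in low N root by a difference of -1.82, had an adjusted p below 0.05 in limma (0.0379).

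Protein turnover had 5 members, 3 of them proteases. Spo23691 (AED3, an aspartyl protease of the apoplast) had 5.48, 37.7 and 8.06 FPKM under low N, against 4.82, 2.48 and 3.96 FPKM under high N in root, and 51.6, 82.3 and 107 FPKM under low N, against 45.01, 39.2 and 37.5 FPKM under high N in leaf. Its low N root mean rested on replicate 2. Spo06109 (SBT2.5) and Spo00420 (SBT4.14), both subtilisin-like proteases, differed by 0.69 and 0.63 in root and by 1.13 and 0.64 in leaf. The F-box gene Spo17557 (SKIP23) and the RING finger gene Spo04204 (ATL66) differed by 0.74 and 0.80 in root and by 0.73 and 1.04 in leaf.

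The widest root difference among the members, 2.03, belonged to Spo13019 (MARD1, a zinc finger protein linked to senescence in Arabidopsis), with 21.1, 35.3 and 37.1 FPKM under low N, against 3.74, 3.93 and 18.2 FPKM under high N in root, and 69.3, 92.04 and 106 FPKM under low N, against 44.04, 33.3 and 52.1 FPKM under high N in leaf. High N root replicate 3 was again far above the other 2. Spo16177 (LURP-one-related 12) showed the same, with 26.4, 31.8 and 27.5 FPKM under low N, against 6.602, 7.48 and 19.97 FPKM under high N in root, and 58.7, 28.9 and 28.02 FPKM under low N, against 22.7, 25.3 and 21.8 FPKM under high N in leaf. Spo21626 (petal death protein) had 561, 682 and 618 FPKM under low N, against 223, 266 and 438 FPKM under high N in root, and 341, 473 and 247 FPKM under low N, against 183, 184 and 66.6 FPKM under high N in leaf. Spo22508 (NDR1/HIN1-like 13) had 53.6, 87.4 and 56.4 FPKM under low N, against 25.6, 24.7 and 48.6 FPKM under high N in root, and 15.3, 12.2 and 12.2 FPKM under low N, against 4.22, 4.91 and 5.05 FPKM under high N in leaf. Spo13482, with no best hit, had 481, 1023 and 627 FPKM under low N, against 252, 166 and 231 FPKM under high N in root, and 58.2, 59.7 and 114 FPKM under low N, against 50.3, 26.7 and 24.6 FPKM under high N in leaf. Its means were below those of the RALF-like 33 gene Spo06335 in all 4 groups, with 710 against 944 FPKM in low N root. Spo13482 was the shortest member, with 180 bases.

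The rule named no replicate, but it used the highest high N library, the lowest low N library and the group means. Which replicate was highest or lowest in its group is therefore not independent of the choice of members, and the counts are a description. The libraries were unequal in it. High N root replicate 3 was the highest of the high N root libraries for 84 of the 100 members and for 36.9% of all 15344 genes, and high N root replicate 2 was the lowest for 70 members and for 31.5% of all genes. Low N root replicate 2 was the highest of its group for 70 members, beside 33.8% of all genes, and low N root replicate 1 was the lowest for 60 members, beside 36.2%. In leaf the imbalance was smaller, since low N leaf replicate 1 was the highest for 53 members (36.1% of all genes) and high N leaf replicate 1 for 45 (46.2% of all genes). The median deviation of the members from their group mean was 0.27 in high N root replicate 3 and 0.32 in low N root replicate 2 on the log2 scale, beside -0.01 and -0.03 over all genes. Among the 152 genes that were higher in high N in both tissues, the same libraries were at the other extreme, with high N root replicate 3 the lowest of its group for 114 (39.2% of all genes) and low N root replicate 2 the lowest for 103 (41.5% of all genes). What set these libraries apart was not tested.

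**Figure D4:**
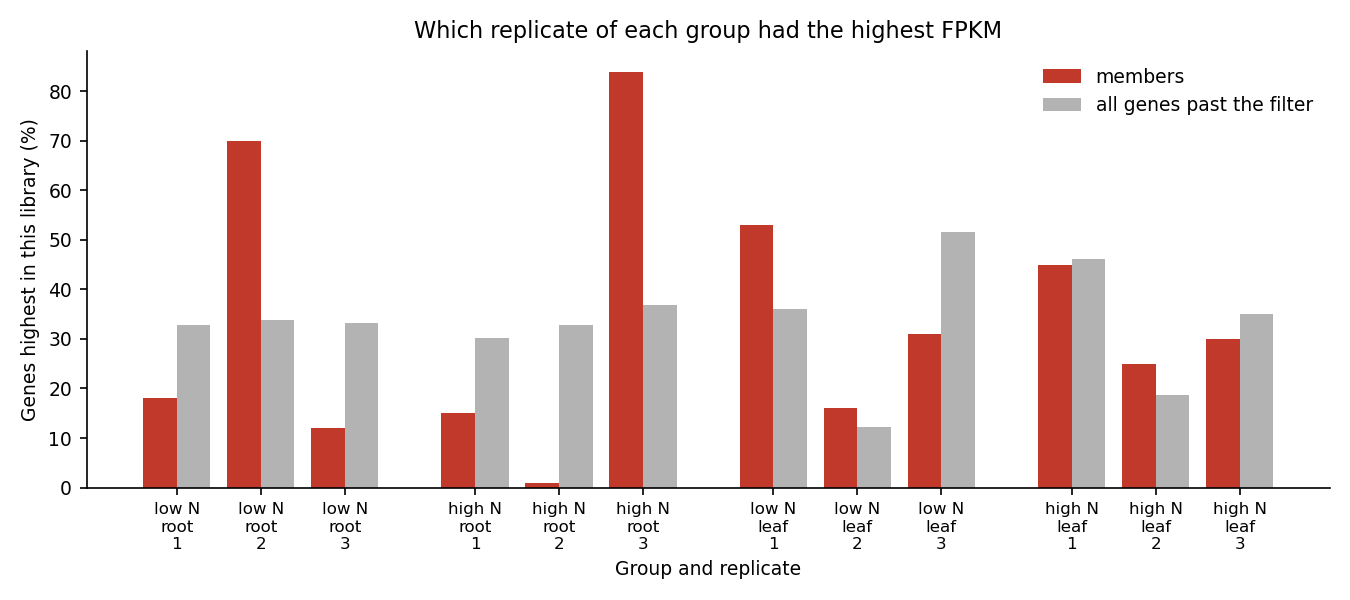
Percent of genes for which a library had the highest FPKM of its group's 3 replicates (vertical), for the 100 members (red) and for all 15344 genes with a mean of at least 1 FPKM in both tissues (grey), by group and replicate number. Members peaked in low N root replicate 2 for 70% and in high N root replicate 3 for 84%, where all genes gave 33.8% and 36.9%.

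Leaving out a single library changed which genes stood in the top 100. Without high N root replicate 3, 668 genes had no overlap in both tissues and 48 of the 100 members were again in the top 100, and without low N root replicate 1 the counts were 627 and 51. A gap between treatments cannot close when a library is left out, so all 100 members kept theirs in both cases by construction. The loss came from other genes that entered above them. Leaving out any other library kept 72 to 89 members in the top 100. The median root difference of the members was 1.10 without high N root replicate 3 and 0.76 without low N root replicate 2, compared with 0.96 with all libraries. The median leaf difference was 0.81 without low N leaf replicate 1, compared with 0.91.

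Root and leaf levels were not compared by the rule, so limma was used to test root against leaf within each N supply. Under low N, 54 of the 100 members were higher in root and 7 lower at an adjusted p below 0.05, where 46.1% and 15.2% of the 18408 genes tested were. Under high N, 57 of the 99 members tested were higher in root and 10 lower, where 50.5% and 17.1% of 18247 genes were. The share higher in root was above that of all genes and the share lower in root was below it, under both supplies. All genes tested needed a mean of at least 1 FPKM over the libraries compared, whereas members needed it in each tissue. No result about the members is read from these shares. The direction was the same in both supplies for every member called in both, 51 higher and 7 lower in root, and 30 members were called in neither.

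FPKM is relative to the total of a library, and in leaf a few photosynthesis genes take much of it. Over all genes tested, the root minus leaf difference as deposited had a median of 0.55 under low N and of 0.52 under high N, and of 0.05 and 0.04 after median-of-ratios scaling. The members had a median of 0.86 in low N plants and of 0.88 in high N plants as deposited, and of 0.37 and 0.49 after scaling. With that scaling 36 members were higher and 13 lower in root under low N, where 24.0% and 21.7% of all genes were, and 46 and 15 under high N, where 28.6% and 26.4% were. Quantile normalization gave 40 higher and 14 lower under low N, where 25.3% and 22% of all genes were, and 44 and 15 under high N, where 29.6% and 26.2% were.

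The ammonium transporter gene Spo24676 was higher in root, with a root minus leaf difference of 5.44 ± 0.37 under low N and 5.49 ± 0.495 under high N (SE, limma adjusted p = 1.43e-05 and 7.58e-05). Spo20291 (MLP-like protein 31) had 50.6, 60.8 and 72.6 FPKM under low N, against 28.8, 38.1 and 40.6 FPKM under high N in root, and 2.14, 0.746 and 2.29 FPKM under low N, against 0.508, 0.226 and 0.113 FPKM under high N in leaf. It was higher in root by 4.56 ± 0.29 under low N and by 4.84 ± 0.19 under high N (limma adjusted p = 9.02e-06 and 1.68e-06). The order of these 2 genes under high N depended on the pseudocount, since with 0.1 in place of 1 the difference was 6.25 for Spo24676 and 6.67 for Spo20291. The sterol desaturase gene Spo06253 differed between tissues by 4.35 ± 0.19 under low N, and the kinase gene Spo14015 by 4.85 ± 0.28 under high N (limma adjusted p = 1.46e-06 and 8.36e-06). In these 4 genes every root library was above every leaf library.

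Preference for leaf was found for fewer members. Spo25753, with no best hit, had 1.45, 2.74 and 1.08 FPKM under low N, against 0.561, 0.519 and 0.428 FPKM under high N in root, and 57.9, 63.1 and 84.1 FPKM under low N, against 11.2, 17.5 and 38.3 FPKM under high N in leaf, a root minus leaf difference of -4.68 ± 0.27 under low N and -3.79 ± 0.40 under high N (SE, limma adjusted p = 5.39e-06 and 0.000163). The protease gene Spo23691 followed with -2.56 ± 0.64 under low N and -3.16 ± 0.21 under high N (limma adjusted p = 0.0102 and 1.71e-05). Spo22801, with no best hit, was lower in root by a difference of -2.18 ± 0.25 under low N, and Spo13019 (MARD1) by -2.50 ± 0.54 under high N (limma adjusted p = 0.000222 and 0.00505). The starch branching enzyme gene Spo06399 was lower in root under both supplies as well, with differences of -1.46 and -1.46 (limma adjusted p = 0.000578 and 0.00155).

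Setting the tissue and N differences side by side, the mean of low N leaf was below the mean of high N root for 48 members. Low N root had the highest mean of the 4 groups for 77 members and low N leaf for 23. The rule placed low N above high N within each tissue, so these counts are a description only.

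**Figure D5:**
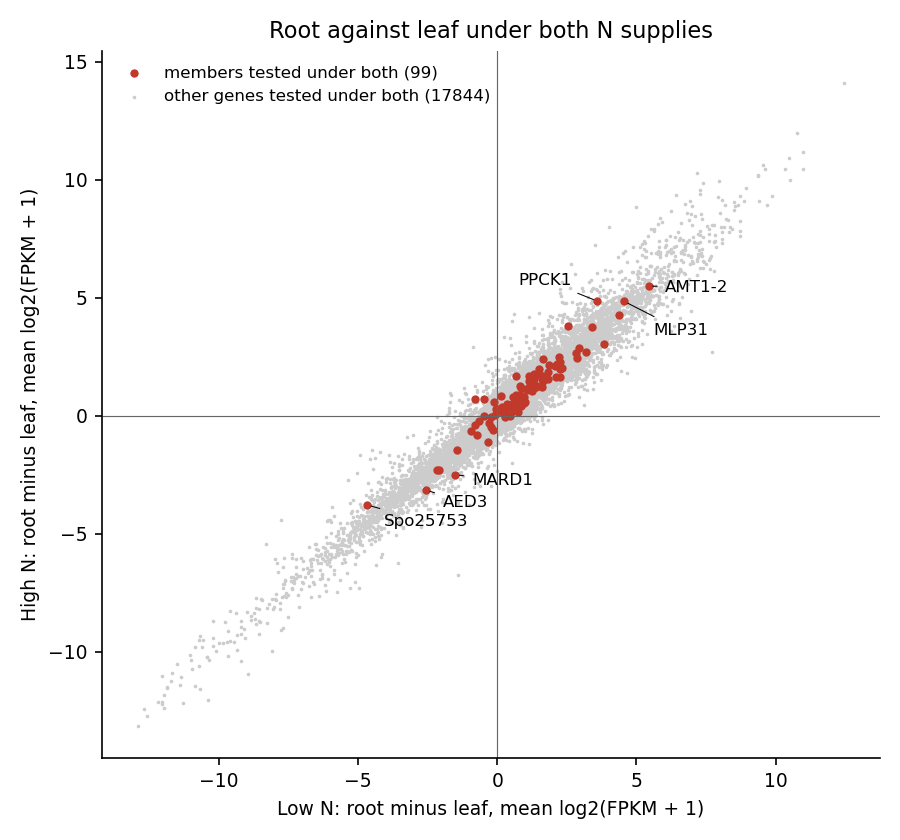
Each point is a gene, placed by its root minus leaf difference of mean log2(FPKM + 1) under low N (horizontal) and under high N (vertical), for the 99 members tested under both supplies (red) and the 17844 other genes tested under both (grey). Spo24676 (AMT1-2) lies farthest to the upper right of the members at 5.44 and 5.49, and Spo25753 farthest to the lower left at -4.68 and -3.79.

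Over the 12 libraries, the members were not of a single pattern. The Pearson r between a member and the median of the members' standardized log2(FPKM + 1) values ran from -0.45 to 0.99 with a median of 0.87, a measure that tissue and treatment share and that is given as a description. Among genes outside the 100, those nearest to the median pattern were Spo23129 (dehydration-responsive element-binding protein 3, a transcription factor, r = 0.97), Spo13954 (r = 0.96) and Spo05752 (r = 0.96), the last 2 with no best hit. Spo23129 averaged 13.8 FPKM in low N root, against 6.28 FPKM in high N root, and 4.55 FPKM in low N leaf, against 1.48 FPKM in high N leaf. It and Spo05752 were outside the 307 because libraries overlapped in at least 1 tissue, and Spo13954 held rank 140.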

How the data were processed

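RNA from leaf and root of low N and high N spinach was sequenced as 12 libraries of paired reads. Per the study's design text, the authors used Bowtie v2.2.3 to index the SpinachBase genome, TopHat v2.0.12 to align the reads and HTSeq v0.6.1 to count them per gene, and the submitters' processing notes also name fastp, HISAT2 2.1.0 and featureCounts. The authors deposited FPKM for 25495 genes, with 0 further columns of other samples. FPKM removes library total and gene length, so a few abundant genes of a tissue shift all others. The fragments and the length of a gene could be recovered from its FPKM values for 23015 genes, of which 99.5% gave a length whole within 0.01 bases, and 2480 genes were 0 throughout. A count of 3 fragments, taken as the floor, is 0.161 to 0.192 FPKM for a 1 kb gene, for counting error only.

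Members were found by the rule given in the report. Root was tested against leaf within each N supply, and low N against high N within each tissue as background, with R 4.3.3 and limma 3.58.1. Values were taken as log2(FPKM + 1), with genes averaging at least 1 FPKM in the libraries compared, a variance trend and Benjamini-Hochberg adjustment over all genes. The limma step and the recovery of fragments were tested on simulated data. In the simulation for the recovery, library totals were taken as known and genes with few fragments were not scored. The estimate of the totals and the recovery of such genes were therefore not tested. The other steps used Python 3.11.15, pandas 2.3.3, NumPy 2.4.6 and matplotlib 3.10.9. P-values measure the spread between libraries, from 3 plants per treatment per the design text. The members, gene lists and roles were chosen with earlier results of these data known. Named genes were the 12 highest-ranked members, the members in a gene list or with a role known from the best hit, the 3 members with the widest tissue difference in each direction, the 3 genes on each side of the rank limit and the 3 genes most like the median pattern. Best-hit names came from the study's supplementary lists of changed genes, and 0 gene identifiers matched the RefSeq table, so no sequence is shown. Same-numbered leaf and root libraries under low N deviated together, with correlations of 0.27, 0.11 and 0.30, and under high N with 0.13, 0.38 and 0.09. Under low N the best partner of each replicate had its own number, and under high N the best partner of replicate 1 was replicate 3. Same-numbered libraries of the 2 treatments had -0.02 to 0.10 in root and -0.01 to 0.27 in leaf. Alternatives were a pseudocount of 0.1, no filter, a mean of at least 5 FPKM, median-of-ratios scaling, quantile normalization, no trend, all 4 groups in a single fit, the replicate number as a block and each library left out.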

Additional observations from a re-analysis of the deposited data

How the results depend on the processing

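Of the 100 members, 92 remained in the top 100 with a pseudocount of 0.1, 98 with no filter, 70 with a mean of at least 5 FPKM, 82 after median-of-ratios scaling and 79 after quantile normalization, and 48 to 89 with a library left out. Members lower in root under low N numbered 13 after median-of-ratios scaling and 14 after quantile normalization, compared with 7, and 6 to 8 with a library left out. Members called in either direction numbered 49 to 63 under low N and 59 to 70 under high N with a library left out, with 43 to 56 and 50 to 62 higher in root and 7 to 10 lower under high N. A block for the replicate number, which pairs the libraries, gave 54 members higher and 9 lower under low N and 57 and 10 under high N. It gave 1991 genes at an unadjusted p below 0.05 for low N against high N in root and 2208 in leaf, and changed no other call by over 1.5 times. With a library left out these N counts ran from 977 to 3110 in root, with 488 to 1979 higher and 489 to 1131 lower under low N, and from 1310 to 1975 in leaf, with 690 to 1116 higher and 454 to 1024 lower. The lowest root count, 977, was without high N root replicate 2 and the highest, 3110, without low N root replicate 1. The root count was 1185 without high N root replicate 1, and the leaf extremes of 690 higher and 454 lower were without high N leaf replicate 2 and low N leaf replicate 2. The cause was not tested. The root minus leaf differences of the 3 members widest in each direction under each N supply, and of Spo06399, kept their sign and their call under every alternative run. With 3 libraries a group, differences under the spread of replicates could not be resolved.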

Other observations

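The near absence of Spo16727 from both high N replicate 2 libraries led to a count over all genes, made after its values were seen. A gene was counted where a leaf and a root library of a treatment were both under 0.1 times the mean of the other 2 libraries of their group, with those others averaging at least 5 FPKM. Among the 15344 genes, 62 met this in high N leaf replicate 2 and high N root replicate 2. The other same-numbered pairs held 7 and 10 genes under high N and 2, 5 and 10 under low N. The 12 pairs of libraries with different numbers held 0 to 7 genes each and 22 in all, compared with 96 in the 6 same-numbered pairs. Whether same-numbered leaf and root libraries came from the same plant was not stated in the sources used here.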
